A study of Rattus norvegicus with 47 samples.

Results

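The genes described here encode the subunits of voltage-gated sodium channels (Scn), voltage-gated calcium channels (Cacna, Cacnb, Cacng), the hyperpolarisation-activated HCN channels (Hcn), the CLC chloride channels and exchangers (Clcn) and the chloride intracellular channel proteins (Clic). They were chosen by gene symbol alone: 53 probe sets of the array carried a single symbol with one of these stems, for 39 genes out of 10899 genes with a single symbol and 20304 probe sets in the table. Each gene was represented by its probe set of highest mean signal. There were 9 sodium channel genes, 18 calcium channel genes, 2 HCN genes, 7 CLC genes and 3 Clic genes, and 21 of the 39 had a mean signal high enough to be tested (6, 9, 1, 3 and 2 by family).

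The arrays measured medial prefrontal cortex RNA. The donors were Wistar rats, of outbred stock, kept with company (Soc) or alone (Iso). They were sampled at 4 ages given in postnatal days, namely P30, P40, P60 and P80, so that all 8 groups shared strain and labelled tissue and differed in housing and age. Each group held 6 arrays except Iso P40 with 5, and arrays 3 and 4 of Iso P30 were so alike that their mean was used as 1 sample, which left n = 5 in both of those groups and n = 6 in the other 6. Sex, the age at which isolation began and any pooling of animals are not given in the sources used here, so the p-values measure sample-to-sample spread, part of which may be technical.

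Voltage-gated sodium channels carry the upstroke of the action potential: a large alpha subunit forms the pore, and small beta subunits tune its gating and anchor it in the membrane. Voltage-gated calcium channels turn depolarisation into calcium entry, which drives transmitter release at terminals and gene expression and plasticity in dendrites; their alpha1 pore is carried to the surface and tuned by alpha2delta and beta subunits, while several proteins named as gamma subunits act mainly on AMPA-type glutamate receptors. Cacng2 and Cacng3 encode such proteins and are counted below, by symbol, among the calcium channel genes. In the prefrontal cortex sodium and calcium channels set how pyramidal cells and interneurons fire during adolescence, when the region is still maturing. HCN channels carry a depolarising current that opens on hyperpolarisation, and most CLC proteins of neurons are chloride and proton exchangers of endosomes and lysosomes.

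Values are log2 signals, differences are Iso minus Soc or older minus younger on that scale, errors of differences are standard errors, and adjusted p-values, except those of the exact permutation tests further on, are from the limma fit over 12149 probe sets with Benjamini-Hochberg adjustment, with 0.05 as the threshold for a call. Signals of different probe sets are not compared with each other. Of the 5 measured markers of excitatory cortical neurons, 4 passed the signal filter (Slc17a7, Camk2a, Neurod6, Nrgn) and Tbr1 did not, and 6 of 6 of interneurons passed. All 4 measured striatal markers (Drd1, Ppp1r1b, Rgs9, Penk) and 2 of 2 thalamic markers (Tcf7l2, Prkcd) passed too. Passing the filter therefore cannot tell cortex from neighbouring tissue. Several markers differed with rearing themselves. Ttr, a marker of choroid plexus, differed by -3.11 (adjusted p = 1.43e-27) at P30 and 1.97 (adjusted p = 8.84e-20) at P40. Of the 5 measured markers of choroid plexus and ependyma, Ttr alone passed the filter. Folr1, Kcne2, Sostdc1 and Foxj1 were under it and were not tested. Their means did not all move with Ttr: at P30 Folr1 was 5.13 in Soc and 5.56 in Iso, and Sostdc1 was 5.06 and 4.47. All 7 of 7 measured oligodendrocyte markers were lower in Iso at P40. Slc17a7, the vesicular glutamate transporter of cortical excitatory neurons, differed by -0.35 (adjusted p = 3.86e-09) at P30, -0.45 at P40, 0.55 at P60 and -0.30 at P80, and passed the test at each age. The list did not move as a whole: Camk2a differed by 0.46 (adjusted p = 1.22e-12) at P30 and -0.10 (adjusted p = 0.0165) at P60, opposite in sign to Slc17a7. Neurod6 (0.16) and Nrgn (0.17) were higher in Iso at P80, where Slc17a7 was lower. The summed signal of the 5 excitatory markers lay between 4053.58 and 4664.76 in Soc and between 4781.45 and 5362.32 in Iso at P60. In bulk tissue, fewer cells of a type and less RNA per cell cannot be told apart. The Gapdh ratio, meaning the signal of the array's Gapdh control at the 3' end over that at the 5' end, is raised by RNA degradation, and it also differed with rearing: its group means were 1.52, 1.61, 2.03 and 1.89 in Soc and 1.34, 1.87, 1.36 and 1.57 in Iso from P30 to P80. The part of these markers and of this ratio in the results below was not tested beyond the fit with the ratio as a covariate. That fit is given where it ended a rearing call, for Cacng3, and by count or gene for the age steps. The ranges of the ratio in Soc and Iso did not overlap at any age. A rearing call that ended in this fit therefore does not tell the ratio from rearing.

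Promoter sequences are shown for 3 members, because Cacng3 had the largest rearing difference at P60 among the members, and because Scn2b and Scn4b, which encode related beta subunits, lie on the same chromosome, 21.49 kb apart, and had unlike rearing differences at P80. The windows run from 250 bases before to 50 bases after the gene start in RefSeq (build GRCr8), 5' to 3' on the gene's strand, with matches to the GC box (GGGCGG on either strand) in capitals. The Cacng3 window is chr1:186632312-186632611 (+), with 63% G and C, and holds 1 match.
Cacng3: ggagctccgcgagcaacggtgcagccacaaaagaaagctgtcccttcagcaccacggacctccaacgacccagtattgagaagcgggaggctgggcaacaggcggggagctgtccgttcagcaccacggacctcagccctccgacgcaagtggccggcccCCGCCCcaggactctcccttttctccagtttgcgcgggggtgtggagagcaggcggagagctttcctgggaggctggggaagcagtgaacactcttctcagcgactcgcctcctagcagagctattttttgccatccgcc
The Scn2b window is chr8:54322133-54322432 (+), with 39% G and C, and the Scn4b window is chr8:54343623-54343922 (+), with 70% G and C.
Scn2b: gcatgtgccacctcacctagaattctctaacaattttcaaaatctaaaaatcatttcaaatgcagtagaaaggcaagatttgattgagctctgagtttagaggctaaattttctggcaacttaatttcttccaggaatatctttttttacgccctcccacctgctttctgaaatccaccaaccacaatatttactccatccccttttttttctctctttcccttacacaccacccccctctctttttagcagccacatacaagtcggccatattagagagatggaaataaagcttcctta
Scn4b: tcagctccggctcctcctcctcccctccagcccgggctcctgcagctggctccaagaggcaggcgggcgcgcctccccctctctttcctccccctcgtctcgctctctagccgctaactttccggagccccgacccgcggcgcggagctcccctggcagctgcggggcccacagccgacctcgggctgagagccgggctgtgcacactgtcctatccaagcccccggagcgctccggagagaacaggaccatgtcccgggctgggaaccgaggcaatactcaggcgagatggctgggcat
The starts of the latter windows lie 21.49 kb apart on the same strand. A GC box was present in 33.1% of 33469 promoter windows in the table, a cyclic AMP response element (TGACGTCA) in 1.83% and an Egr site (GCGTGGGCG) in 0.544%, each searched on both strands. The windows of Scn2b and Scn4b hold none of these letter strings, and the Cacng3 window holds the GC box alone. The build of the array annotation is not stated, so only names link these windows to the signals, and 28 of the 39 members have a window in the table.

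At P30, 9 of the 21 tested members differed by rearing: Scn4b was higher in Iso and 8 were lower (Cacnb1, Cacng3, Scn2a, Cacna2d1, Cacnb3, Cacna1b, Clcn6, Scn1a). Across all 7896 genes tested, 19.3% were called at this age, 7.62% higher and 11.7% lower. The median difference was -0.15 over the 21 members and 0.0045 over all genes. In 7 members the groups did not overlap, against 10.1% of all genes. Calcium channel genes made up 5 of the 8 that were lower, and the other 4 tested calcium channel genes did not pass.

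At P40, 5 members were called, against 24.6% of all genes (13.7% higher, 10.8% lower). Cacna2d3 and Scn3b were higher in Iso, and Cacng3, Cacna2d1 and Clic4 were lower. The median difference was 0.0070 over the members and 0.017 over all genes, and in 3 members the groups did not overlap, against 10.6% of all genes. This count of 5 out of 21 is near the share over all genes.

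At P60, 15 members were called, 8 higher and 7 lower in Iso, against 51.5% of all genes (21.9% higher, 29.6% lower). Of the 9 tested calcium channel genes, 5 were higher (Cacng3, Cacnb1, Cacnb3, Cacna2d1, Cacng2) and Cacna2d3 was lower. Of the 6 tested sodium channel genes, 4 were lower (Scn3b, Scn1a, Scn2b, Scn4b) and Scn2a was higher. In 12 members the groups did not overlap, against 29.4% of all genes. With the Gapdh ratio as a covariate, 7 members were called at P60 (Cacng3, Cacna2d1, Cacnb3, Cacna2d3, Clcn3, Clic4, Scn1a), against 3753 of all 12149 probe sets in that fit. The calls of the other 8 ended, and Clcn4 turned to -0.091. Among these 8, the difference of several stayed close to that without the covariate: 0.48 for Cacnb1, 0.32 for Clcn6, -0.25 for Scn2b and -0.14 for Scn4b. It shrank to 0.10 for Cacng2, 0.03 for Scn2a and -0.18 for Scn3b. The values without the covariate are given further on. Of the 7 still called, Cacng3 shrank from 0.86 to 0.49, and the others grew in size.

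At P80, 12 members were called, 4 higher and 8 lower in Iso, against 49.5% of all genes (24.5% higher, 25.1% lower). Scn4b, Cacna2d3, Clic1 and Scn3b were higher. Cacng2, Cacna2d1, Clcn4, Cacnb3, Clcn6, Cacna1b, Scn2a and Scn1a were lower. In 7 members the groups did not overlap, against 26.4% of all genes.

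The direction of the rearing difference turned with age in many members. The rearing by age interaction was called in 17 of 21 members, against 71.7% of all genes, and 11 members were called in both directions at different ages, against 36.9% of all genes. In 7 of these 11 the P60 call ended with the Gapdh ratio as a covariate. Of the 8 members called at both P30 and P60, 7 had opposite directions (Cacna2d1, Cacnb1, Cacnb3, Cacng3, Clcn6, Scn2a, Scn4b), and Scn1a was lower at both, where 64.3% of the 903 genes called at both ages had opposite directions. Of the 10 called at both P60 and P80, 9 had opposite directions, with Scn1a again the exception, against 87.1% of 2344 genes. All 7 members called at both P30 and P80 had the same direction, as had 73.7% of 901 genes. Turns of direction were thus common over the whole array. The comparisons at different ages share no samples. The change of the rearing difference from P40 to P60 was called in 14 members, 8 upward and 6 downward, against 51.5% of all genes (21.8% upward, 29.7% downward). With the Gapdh ratio as a covariate this count was 8, against 4014 of all 12149 probe sets in that fit. Cacna1c, Cacnb2, Scn3a and Hcn2 were called at no age.

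**Figure D1:**
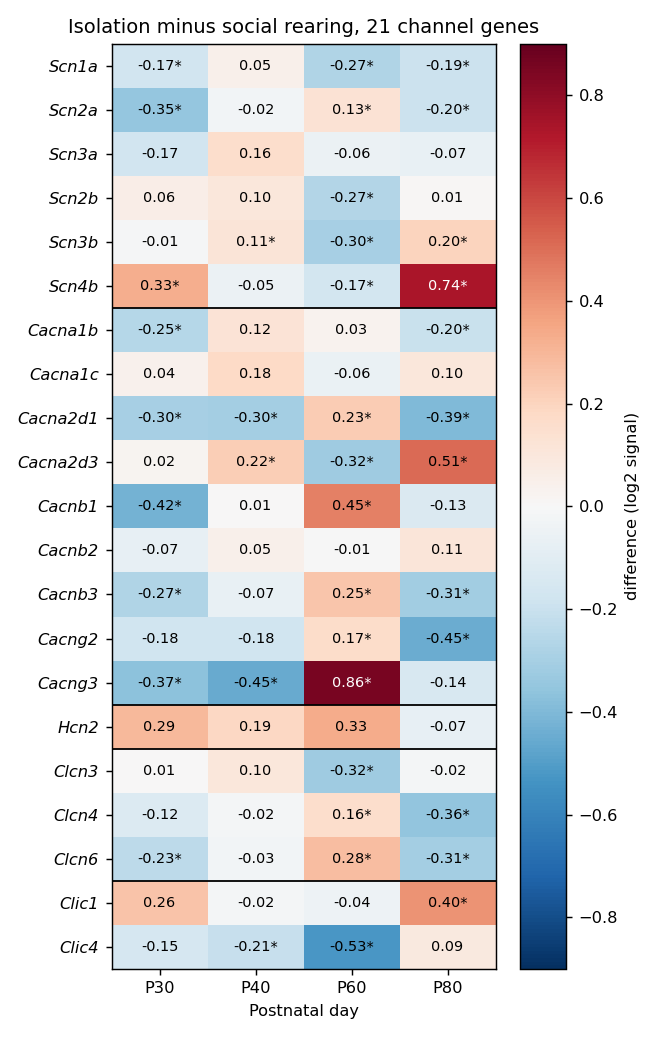
Rearing difference (Iso minus Soc, log2 signal) of the 21 tested channel genes at postnatal days 30, 40, 60 and 80, with an asterisk where the adjusted p is under 0.05 and lines between families. Cacng3 goes from -0.45 at P40 to 0.86 at P60, and 11 genes have asterisks in both colours.

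Scn1a encodes the NaV1.1 pore, which is prominent in fast-spiking interneurons. Scn1a signals at P30 were 7.65 to 7.87 in Soc (median 7.79), and 7.48, 7.58, 7.61, 7.65 and 7.72 in Iso. At P40, Scn1a gave 7.86 to 7.98 in Soc (median 7.93), and 7.93, 7.95, 7.95, 7.97 and 8.05 in Iso. The groups overlapped at both ages. Scn1a was lower in Iso at P30, with a difference of -0.17 ± 0.047 (SE, 1.12-fold lower, adjusted p = 0.00747) and the P40 difference did not pass (0.05 ± 0.047 (SE, adjusted p = 0.496)). The P30 call ended when only the groups compared were fitted. Scn1a signals at P60 were 7.92 to 8.12 in Soc (median 8.02) and 7.70 to 7.86 in Iso (median 7.74). At P80, Scn1a gave 8.06 to 8.27 in Soc (median 8.15) and 7.86 to 8.09 in Iso (median 7.96). No Iso sample reached the lowest Soc sample at P60, where the difference was -0.27 ± 0.045 (SE, 1.2-fold lower, adjusted p = 1.93e-06), and at P80 the ranges met at their edges with -0.19 ± 0.045 (SE, 1.14-fold lower, adjusted p = 0.000429). Among the 6 interneuron markers measured, 4 were higher and 2 lower in Iso at P60. Pvalb differed by 0.82 (adjusted p = 1.47e-09), and the lower ones were Vip (-0.45, adjusted p = 1.92e-12) and Gad1 (-0.26, adjusted p = 3.16e-09). At P80, 3 of the 6 were higher and 1 was lower, namely Pvalb (-0.38, adjusted p = 0.00133).

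Scn2a encodes NaV1.2, the pore of the axon initial segment and unmyelinated axons of excitatory neurons. Scn2a signals at P30 were 9.25 to 9.43 in Soc (median 9.29), and 8.87, 8.93, 8.97, 9.01 and 9.02 in Iso. At P40, Scn2a gave 9.01 to 9.13 in Soc (median 9.06), and 9.004, 9.02, 9.02, 9.07 and 9.07 in Iso. All Iso samples lay under all Soc samples at P30, with a difference of -0.35 ± 0.034 (SE, 1.28-fold lower, adjusted p = 9.05e-11), while at P40 the ranges overlapped (-0.02 ± 0.034 (SE, adjusted p = 0.681)). Scn2a signals at P60 were 9.03 to 9.13 in Soc (median 9.09) and 9.15 to 9.28 in Iso (median 9.23). At P80, Scn2a gave 9.04 to 9.13 in Soc (median 9.09) and 8.80 to 8.97 in Iso (median 8.90). The order of the groups was Iso above Soc at P60, with 0.13 ± 0.033 (SE, 1.1-fold higher, adjusted p = 0.000607), and Iso below Soc at P80, with -0.20 ± 0.033 (SE, 1.15-fold lower, adjusted p = 2.45e-06), in either case without overlap. The P60 call ended with the Gapdh ratio as a covariate (difference 0.03, adjusted p = 0.832).

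Scn3a encodes NaV1.3, which in rodents is mostly an embryonic form. Its signal was near the filter, with group means between 5.92 and 6.26. Scn3a signals at P30 were 5.67 to 6.44 in Soc (median 6.06), and 5.27, 5.92, 6.06, 6.08 and 6.26 in Iso. At P40, Scn3a gave 5.93 to 6.41 in Soc (median 6.06), and 6.001, 6.02, 6.40, 6.43 and 6.45 in Iso. The ranges overlapped throughout. Scn3a signals at P60 were 5.97 to 6.24 in Soc (median 6.07) and 5.82 to 6.18 in Iso (median 6.06). At P80, Scn3a gave 5.85 to 6.22 in Soc (median 6.07) and 5.83 to 6.18 in Iso (median 5.98). No rearing difference passed: they were -0.17, 0.16, -0.06 and -0.07 from P30 to P80, with standard errors of 0.12 to 0.13.

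Scn2b encodes the beta2 subunit, which is linked to the alpha subunit by a disulfide bond. Scn2b signals at P30 were 9.81 to 9.97 in Soc (median 9.91), and 9.90, 9.91, 9.94, 9.97 and 10.02 in Iso. At P40, Scn2b gave 9.75 to 10.06 in Soc (median 9.997), and 10.01, 10.06, 10.06, 10.10 and 10.16 in Iso. Neither early difference passed (0.06 ± 0.054 (SE, adjusted p = 0.476) at P30 and 0.10 ± 0.054 (SE, adjusted p = 0.15) at P40). Scn2b signals at P60 were 10.11 to 10.34 in Soc (median 10.20) and 9.82 to 10.16 in Iso (median 9.94). At P80, Scn2b gave 10.11 to 10.32 in Soc (median 10.26) and 10.04 to 10.38 in Iso (median 10.27). It was lower in Iso at P60, with a difference of -0.27 ± 0.052 (SE, 1.2-fold lower, adjusted p = 2.82e-05), with 1 Iso sample inside the Soc range, and at P80 the difference was 0.01 ± 0.052 (SE, adjusted p = 0.891). The P60 call ended with the Gapdh ratio as a covariate (difference -0.25, adjusted p = 0.125).

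Scn4b encodes the beta4 subunit, which supports resurgent sodium current and is abundant in striatal projection neurons as well as in cortex. Scn4b signals at P30 were 7.30 to 7.55 in Soc (median 7.45), and 7.64, 7.72, 7.73, 7.80 and 7.87 in Iso. At P40, Scn4b gave 7.87 to 8.05 in Soc (median 7.996), and 7.83, 7.91, 7.95, 7.97 and 7.98 in Iso. Every Iso sample was above every Soc sample at P30, with 0.33 ± 0.049 (SE, 1.25-fold higher, adjusted p = 2.43e-06), and at P40 the ranges overlapped (-0.05 ± 0.049 (SE, adjusted p = 0.431)). Scn4b signals at P60 were 8.28 to 8.39 in Soc (median 8.32) and 8.02 to 8.27 in Iso (median 8.15). At P80, Scn4b gave 7.73 to 7.99 in Soc (median 7.90) and 8.51 to 8.68 in Iso (median 8.64). Iso lay under Soc without overlap at P60, with a difference of -0.17 ± 0.046 (SE, 1.12-fold lower, adjusted p = 0.00233), a call that ended with the Gapdh ratio as a covariate (difference -0.14, adjusted p = 0.37). At P80 the lowest Iso sample was above the highest Soc sample, and the difference of 0.74 ± 0.046 (SE, 1.67-fold higher, adjusted p = 1.23e-17) was the largest rise of that age among the members. The 2 windows printed above belong to Scn4b and Scn2b, whose P80 differences were 0.74 and 0.01. Of 7 listed striatal markers, 4 were measured (Drd1, Ppp1r1b, Rgs9, Penk), with a summed signal of 869.78 to 894.24 in Soc and 867.46 to 1080.55 in Iso at P80. Drd1 differed by 0.27 (adjusted p = 0.0112) at P80 and the other 3 did not pass (0.12, 0.04 and 0.12). Rgs9 differed by 0.27 (adjusted p = 0.046) at P30, and Drd1 differed by -0.21 (adjusted p = 0.04) at P60, each with the sign of Scn4b at that age. The list did not move together: at P30 Drd1 (-0.07) and Penk (-0.15), and at P60 Rgs9 (0.18) and Ppp1r1b (0.06), had the other sign, without passing. The part of these markers in the result was not tested.

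Scn3b encodes the beta3 subunit, which binds the alpha subunit without a disulfide bond. Through its brighter probe set, Scn3b signals at P30 were 9.69 to 9.83 in Soc (median 9.73), and 9.68, 9.69, 9.73, 9.78 and 9.81 in Iso. At P40, Scn3b gave 9.66 to 9.80 in Soc (median 9.76), and 9.78, 9.84, 9.84, 9.89 and 9.92 in Iso. The P30 ranges overlapped (-0.01 ± 0.036 (SE, adjusted p = 0.869)), and the P40 difference of 0.11 ± 0.036 (SE, 1.08-fold higher, adjusted p = 0.0146) was not called without array 5 of Iso P40 (adjusted p = 0.0530). Scn3b signals at P60 were 10.02 to 10.08 in Soc (median 10.07) and 9.68 to 9.84 in Iso (median 9.76). At P80, Scn3b gave 9.83 to 10.05 in Soc (median 9.91) and 10.02 to 10.19 in Iso (median 10.12). The gene was lower in Iso at P60, with a difference of -0.30 ± 0.034 (SE, 1.23-fold lower, adjusted p = 6.23e-10), without overlap, and higher at P80, with a difference of 0.20 ± 0.034 (SE, 1.15-fold higher, adjusted p = 4.19e-06). The P40 and P60 calls ended with the Gapdh ratio as a covariate (difference 0.07, adjusted p = 0.265 and difference -0.18, adjusted p = 0.0862). The P40 call also ended when only the groups compared were fitted. A dimmer probe set of Scn3b was called in the opposite direction at P40, P60 and P80, as described further on.

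Cacna1b encodes CaV2.2, the N-type channel of presynaptic terminals. Cacna1b signals at P30 were 7.87 to 8.13 in Soc (median 7.98), and 7.64, 7.67, 7.69, 7.84 and 7.85 in Iso. At P40, Cacna1b gave 7.65 to 7.94 in Soc (median 7.76), and 7.82, 7.84, 7.85, 7.92 and 8.05 in Iso. It was lower in Iso at P30, with a difference of -0.25 ± 0.056 (SE, 1.19-fold lower, adjusted p = 0.000869), without overlap, and the P40 difference did not pass (0.12 ± 0.056 (SE, adjusted p = 0.106)). Cacna1b signals at P60 were 7.69 to 7.91 in Soc (median 7.77) and 7.77 to 7.88 in Iso (median 7.82). At P80, Cacna1b gave 7.70 to 7.96 in Soc (median 7.81) and 7.51 to 7.75 in Iso (median 7.57). The P60 ranges overlapped (0.03 ± 0.054 (SE, adjusted p = 0.624)), and at P80 the Iso samples were again lower, with a difference of -0.20 ± 0.054 (SE, 1.15-fold lower, adjusted p = 0.00159). The P80 call ended with the Gapdh ratio as a covariate (difference -0.17, adjusted p = 0.0843).

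Cacna1c encodes CaV1.2, an L-type channel of cell bodies and dendrites. Cacna1c signals at P30 were 6.39 to 6.61 in Soc (median 6.45), and 6.25, 6.46, 6.50, 6.64 and 6.70 in Iso. At P40, Cacna1c gave 6.13 to 6.54 in Soc (median 6.42), and 6.45, 6.53, 6.57, 6.58 and 6.75 in Iso. The ranges overlapped at both ages, with differences of 0.04 and 0.18 ± 0.078 (SE, adjusted p = 0.0779). Cacna1c signals at P60 were 6.26 to 6.67 in Soc (median 6.39) and 6.23 to 6.52 in Iso (median 6.34). At P80, Cacna1c gave 6.34 to 6.51 in Soc (median 6.39) and 6.42 to 6.61 in Iso (median 6.51). No rearing difference passed at these ages either (-0.06 and 0.10, standard error 0.074).

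Cacna2d1 encodes alpha2delta-1, a subunit that carries calcium channels to the surface and binds gabapentin. It was the only member called at all 4 ages. Cacna2d1 signals at P30 were 8.14 to 8.30 in Soc (median 8.22), and 7.87, 7.88, 7.92, 7.92 and 7.98 in Iso. At P40, Cacna2d1 gave 7.92 to 8.26 in Soc (median 8.13), and 7.74, 7.78, 7.81, 7.82 and 7.90 in Iso. All Iso samples lay under all Soc samples at both ages, with a difference of -0.30 ± 0.047 (SE, 1.23-fold lower, adjusted p = 5.35e-06) at P30 and -0.30 ± 0.047 (SE, 1.23-fold lower, adjusted p = 1.83e-06) at P40. Cacna2d1 signals at P60 were 7.75 to 7.93 in Soc (median 7.80) and 7.95 to 8.13 in Iso (median 8.05). At P80, Cacna2d1 gave 7.79 to 7.98 in Soc (median 7.82) and 7.37 to 7.54 in Iso (median 7.44). The order turned to Iso above Soc at P60, with a difference of 0.23 ± 0.045 (SE, 1.17-fold higher, adjusted p = 2.35e-05), and back at P80, with a difference of -0.39 ± 0.045 (SE, 1.31-fold lower, adjusted p = 4.98e-10), again without overlap. At P60 the Soc group mean was 7.82 and the Iso group mean 8.05.

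Cacna2d3 encodes alpha2delta-3, a paralogue with the same general role. Cacna2d3 signals at P30 were 8.84 to 8.94 in Soc (median 8.90), and 8.83, 8.88, 8.91, 8.98 and 9.001 in Iso. At P40, Cacna2d3 gave 8.60 to 8.83 in Soc (median 8.76), and 8.84, 8.90, 8.99, 9.04 and 9.06 in Iso. The groups overlapped at P30 (0.02 ± 0.046 (SE, adjusted p = 0.754)) and Iso was higher without overlap at P40, with a difference of 0.22 ± 0.046 (SE, 1.17-fold higher, adjusted p = 0.00021), the largest rise of that age among the members. Cacna2d3 signals at P60 were 8.68 to 8.81 in Soc (median 8.75) and 8.36 to 8.51 in Iso (median 8.42). At P80, Cacna2d3 gave 8.02 to 8.26 in Soc (median 8.11) and 8.56 to 8.79 in Iso (median 8.58). Iso was lower at P60, with a difference of -0.32 ± 0.043 (SE, 1.25-fold lower, adjusted p = 3.09e-08) and higher at P80, with a difference of 0.51 ± 0.043 (SE, 1.42-fold higher, adjusted p = 2.24e-13), without overlap at either age. At P40, P60 and P80 the differences of Cacna2d3 (0.22, -0.32, 0.51) had the opposite sign to those of Cacna2d1 (-0.30, 0.23, -0.39), and each of the 6 was called.

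Cacnb3 encodes the cytoplasmic beta3 subunit. Cacnb3 signals at P30 were 8.69 to 8.85 in Soc (median 8.77), and 8.45, 8.46, 8.49, 8.50 and 8.59 in Iso. At P40, Cacnb3 gave 8.60 to 8.72 in Soc (median 8.65), and 8.52, 8.54, 8.59, 8.64 and 8.67 in Iso. It was lower in Iso at P30, with a difference of -0.27 ± 0.038 (SE, 1.21-fold lower, adjusted p = 7.89e-07), without overlap, and the P40 difference did not pass (-0.07 ± 0.038 (SE, adjusted p = 0.198)). Cacnb3 signals at P60 were 8.33 to 8.43 in Soc (median 8.38) and 8.52 to 8.69 in Iso (median 8.65). At P80, Cacnb3 gave 8.58 to 8.68 in Soc (median 8.62) and 8.21 to 8.44 in Iso (median 8.29). Iso was higher at P60, with a difference of 0.25 ± 0.036 (SE, 1.19-fold higher, adjusted p = 1.47e-07) and lower at P80, with a difference of -0.31 ± 0.036 (SE, 1.24-fold lower, adjusted p = 7.31e-10), and neither pair of groups overlapped.

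Cacnb1 encodes the beta1 subunit, and its samples spread more widely, with an SD of 0.36 in Iso P30. Cacnb1 signals at P30 were 7.36 to 7.98 in Soc (median 7.63), and 6.83, 6.90, 7.29, 7.37 and 7.70 in Iso. At P40, Cacnb1 gave 7.30 to 7.95 in Soc (median 7.80), and 7.63, 7.65, 7.82, 7.82 and 7.85 in Iso. The P30 difference of -0.42 ± 0.11 (SE, 1.34-fold lower, adjusted p = 0.00532) was the largest fall of that age among the members, although the ranges overlapped, and at P40 the groups overlapped (0.01 ± 0.11 (SE, adjusted p = 0.971)). The size of the P30 fall is that of the brighter probe set. A dimmer one (1378073_at) gave overlapping ranges at P30, 6.16 to 6.46 in Soc and 5.98 to 6.38 in Iso. Cacnb1 signals at P60 were 7.21 to 7.55 in Soc (median 7.39) and 7.58 to 8.09 in Iso (median 7.83). At P80, Cacnb1 gave 7.43 to 7.84 in Soc (median 7.69) and 7.43 to 7.59 in Iso (median 7.50). Iso was higher at P60 without overlap, with a difference of 0.45 ± 0.11 (SE, 1.37-fold higher, adjusted p = 0.000392), a call that ended with the Gapdh ratio as a covariate (difference 0.48, adjusted p = 0.168), and P80 did not pass (-0.13 ± 0.11 (SE, adjusted p = 0.32)). Cacnb2, for the beta2 subunit, was called at no age: its group means lay between 7.12 and 7.29. Cacnb2 signals at P30 were 7.18 to 7.42 in Soc (median 7.28), and 7.09, 7.20, 7.20, 7.22 and 7.38 in Iso. At P40, Cacnb2 gave 7.06 to 7.25 in Soc (median 7.16), and 7.15, 7.16, 7.21, 7.23 and 7.26 in Iso. Its ranges overlapped at every age. Cacnb2 signals at P60 were 7.14 to 7.32 in Soc (median 7.23) and 7.09 to 7.33 in Iso (median 7.20). At P80, Cacnb2 gave 6.999 to 7.25 in Soc (median 7.11) and 6.97 to 7.35 in Iso (median 7.27). Its rearing differences ran from -0.07 at P30 to 0.11 ± 0.056 (SE, adjusted p = 0.116) at P80.

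Cacng3 encodes TARP gamma-3, an AMPA receptor partner expressed mainly in forebrain neurons. It had the largest swing of all members. Cacng3 signals at P30 were 8.10 to 8.36 in Soc (median 8.21), and 7.78, 7.84, 7.87, 7.88 and 7.92 in Iso. At P40, Cacng3 gave 7.78 to 8.07 in Soc (median 7.83), and 7.17, 7.44, 7.48, 7.53 and 7.54 in Iso. Iso lay under Soc without overlap at both ages, with a difference of -0.37 ± 0.065 (SE, 1.29-fold lower, adjusted p = 4.62e-05) and -0.45 ± 0.065 (SE, 1.37-fold lower, adjusted p = 4.93e-07), and array 5 of Iso P40 was the lowest of its group. Cacng3 signals at P60 were 7.01 to 7.38 in Soc (median 7.23) and 7.92 to 8.22 in Iso (median 8.08). At P80, Cacng3 gave 7.25 to 7.43 in Soc (median 7.36) and 7.02 to 7.34 in Iso (median 7.22). At P60 the lowest Iso sample was above the highest Soc sample, with 0.86 ± 0.062 (SE, 1.81-fold higher, adjusted p = 9.78e-16), and at P80 the ranges overlapped (-0.14 ± 0.062 (SE, adjusted p = 0.056)). From P40 to P60 the rearing difference moved upward, a change of 1.31 ± 0.09 (SE, 2.48-fold higher, adjusted p = 1.20e-16). With the Gapdh ratio as a covariate, the P60 difference shrank to 0.49 (adjusted p = 0.00629) and this change to 0.80 (adjusted p = 0.0012). Slc17a7, given above, had the same sign as Cacng3 at each of the 4 ages, although Cacng3 did not pass at P80. Camk2a had the opposite sign at P30 and P60, and Neurod6 at P60 (-0.03, not passing) and P80, and Nrgn at P80. The part of these markers in the result was not tested.

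Cacng2 encodes stargazin, TARP gamma-2, which carries AMPA receptors to synapses. Cacng2 signals at P30 were 7.49 to 7.62 in Soc (median 7.57), and 7.30, 7.37, 7.37, 7.39 and 7.52 in Iso. At P40, Cacng2 gave 7.29 to 7.74 in Soc (median 7.63), and 7.23, 7.24, 7.42, 7.51 and 7.62 in Iso. Neither early difference passed (-0.18 ± 0.072 (SE, adjusted p = 0.0743) at P30 and -0.18 ± 0.072 (SE, adjusted p = 0.0583) at P40). Cacng2 signals at P60 were 7.17 to 7.41 in Soc (median 7.25) and 7.38 to 7.50 in Iso (median 7.44). At P80, Cacng2 gave 7.43 to 7.68 in Soc (median 7.50) and 6.81 to 7.34 in Iso (median 7.10). It was higher in Iso at P60, with a difference of 0.17 ± 0.068 (SE, 1.12-fold higher, adjusted p = 0.0359), a call lost without array 1, 2, 4 or 6 of Soc P60 or array 1 or 6 of Iso P60 (adjusted p of 0.0553 to 0.0833), and with the Gapdh ratio as a covariate (difference 0.10, adjusted p = 0.679). At P80 all Iso samples lay under all Soc samples, with a difference of -0.45 ± 0.068 (SE, 1.36-fold lower, adjusted p = 5.23e-07), the largest fall of that age among the members, while a dimmer probe set of the gene was higher.

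**Figure D2:**
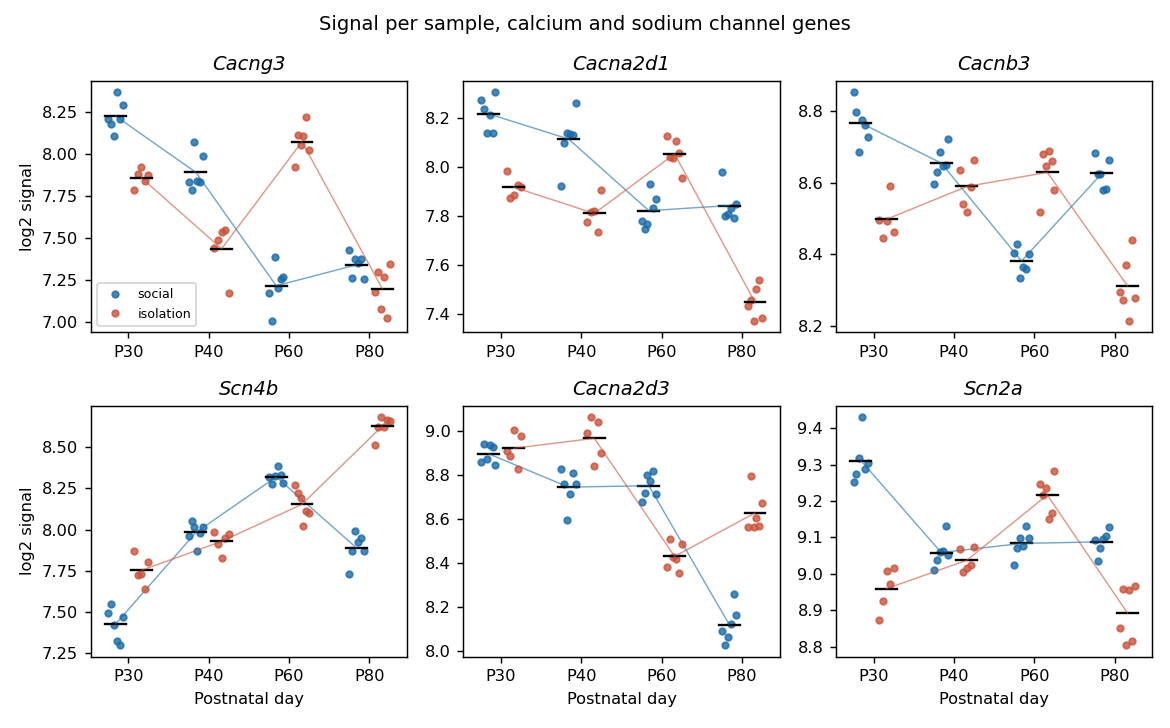
Log2 signal of each of the 46 samples by postnatal day for 6 channel genes (blue, social rearing; red, isolation), with black bars at group means joined by lines. For Cacng3 the Iso samples at P60 (7.92 to 8.22) all lie above the Soc samples (7.01 to 7.38), and for Scn4b the Iso samples lead at P30 and P80.

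Hcn2 encodes an HCN channel of slow gating, and it was the only HCN gene tested. Hcn2 signals at P30 were 6.81 to 7.66 in Soc (median 7.43), and 7.44, 7.60, 7.70, 7.73 and 7.80 in Iso. At P40, Hcn2 gave 6.68 to 7.93 in Soc (median 7.25), and 7.29, 7.32, 7.44, 7.58 and 7.89 in Iso. The ranges overlapped widely. Hcn2 signals at P60 were 6.61 to 7.51 in Soc (median 7.12) and 6.55 to 7.98 in Iso (median 7.60). At P80, Hcn2 gave 6.84 to 7.49 in Soc (median 7.36) and 6.75 to 7.59 in Iso (median 7.17). With standard errors of 0.18 to 0.19, the differences of 0.29, 0.19, 0.33 and -0.07 did not pass, and at this spread smaller differences were not detectable.

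Clcn3, Clcn4 and Clcn6 encode chloride and proton exchangers of endosomes and, for Clcn6, late endosomes. Clcn3 signals at P30 were 9.26 to 9.50 in Soc (median 9.44), and 9.39, 9.41, 9.41, 9.42 and 9.50 in Iso. At P40, Clcn3 gave 9.32 to 9.62 in Soc (median 9.49), and 9.49, 9.55, 9.57, 9.59 and 9.65 in Iso. Neither difference passed (0.01 and 0.10 ± 0.047 (SE, adjusted p = 0.105)). Clcn3 signals at P60 were 9.68 to 9.86 in Soc (median 9.80) and 9.35 to 9.59 in Iso (median 9.48). At P80, Clcn3 gave 9.65 to 9.75 in Soc (median 9.71) and 9.61 to 9.86 in Iso (median 9.65). It was lower in Iso at P60 without overlap, with a difference of -0.32 ± 0.044 (SE, 1.25-fold lower, adjusted p = 5.34e-08), and did not pass at P80 (-0.02 ± 0.044 (SE, adjusted p = 0.775)). The other probe sets of Clcn3 did not all follow, as described further on.

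Clcn4 signals at P30 were 8.27 to 8.44 in Soc (median 8.36), and 8.15, 8.17, 8.17, 8.22 and 8.44 in Iso. At P40, Clcn4 gave 8.11 to 8.22 in Soc (median 8.17), and 8.02, 8.05, 8.18, 8.24 and 8.26 in Iso. The ranges overlapped, and the differences of -0.12 ± 0.05 (SE, adjusted p = 0.0717) and -0.02 did not pass. Clcn4 signals at P60 were 8.07 to 8.26 in Soc (median 8.17) and 8.22 to 8.43 in Iso (median 8.32). At P80, Clcn4 gave 8.27 to 8.35 in Soc (median 8.32) and 7.81 to 8.05 in Iso (median 7.98). Iso was higher at P60, with a difference of 0.16 ± 0.047 (SE, 1.11-fold higher, adjusted p = 0.00472), which turned to -0.091 with the Gapdh ratio as a covariate, and lower at P80 without overlap, with a difference of -0.36 ± 0.047 (SE, 1.28-fold lower, adjusted p = 2.12e-08).

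Clcn6 signals at P30 were 8.20 to 8.48 in Soc (median 8.30), and 7.96, 8.03, 8.09, 8.14 and 8.17 in Iso. At P40, Clcn6 gave 8.09 to 8.31 in Soc (median 8.25), and 8.14, 8.18, 8.20, 8.21 and 8.25 in Iso. It was lower in Iso at P30 without overlap, with a difference of -0.23 ± 0.059 (SE, 1.18-fold lower, adjusted p = 0.00349), while P40 did not pass (-0.03). Clcn6 signals at P60 were 7.91 to 8.07 in Soc (median 8.02) and 8.10 to 8.49 in Iso (median 8.28). At P80, Clcn6 gave 8.11 to 8.38 in Soc (median 8.33) and 7.90 to 8.13 in Iso (median 7.97). Iso was higher at P60 without overlap, with a difference of 0.28 ± 0.056 (SE, 1.21-fold higher, adjusted p = 4.51e-05), and lower at P80, with a difference of -0.31 ± 0.056 (SE, 1.24-fold lower, adjusted p = 1.29e-05), where 1 Soc sample of 8.11 lay inside the Iso range. The P60 call ended with the Gapdh ratio as a covariate (difference 0.32, adjusted p = 0.0724).

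Clic proteins exist in soluble and membrane-bound forms, and Clic4 is found in neurons, astrocytes and vessels. Clic4 signals at P30 were 8.58 to 8.83 in Soc (median 8.69), and 8.29, 8.51, 8.54, 8.58 and 8.77 in Iso. At P40, Clic4 gave 8.54 to 8.97 in Soc (median 8.84), and 8.54, 8.55, 8.60, 8.64 and 8.66 in Iso. The P30 difference did not pass (-0.15 ± 0.063 (SE, adjusted p = 0.0767)), and at P40 Iso was lower, with a difference of -0.21 ± 0.063 (SE, 1.15-fold lower, adjusted p = 0.0107), a call that ended with the Gapdh ratio as a covariate (difference -0.13, adjusted p = 0.24). Clic4 signals at P60 were 8.95 to 9.05 in Soc (median 8.99) and 8.30 to 8.63 in Iso (median 8.48). At P80, Clic4 gave 8.73 to 8.91 in Soc (median 8.87) and 8.81 to 9.03 in Iso (median 8.95). The P60 difference of -0.53 ± 0.06 (SE, 1.44-fold lower, adjusted p = 5.33e-10) was the largest fall of that age among the members, without overlap, and P80 did not pass (0.09 ± 0.06 (SE, adjusted p = 0.243)). Clic1 signals at P30 were 6.38 to 6.67 in Soc (median 6.44), and 6.52, 6.56, 6.88, 6.89 and 6.93 in Iso. At P40, Clic1 gave 6.04 to 6.94 in Soc (median 6.56), and 6.39, 6.40, 6.42, 6.59 and 6.71 in Iso. Neither difference passed (0.26 ± 0.11 (SE, adjusted p = 0.0985) and -0.02). Clic1 signals at P60 were 6.40 to 6.69 in Soc (median 6.57) and 6.25 to 6.80 in Iso (median 6.53). At P80, Clic1 gave 5.80 to 6.40 in Soc (median 6.18) and 6.38 to 6.76 in Iso (median 6.57). It was higher in Iso at P80, with a difference of 0.40 ± 0.11 (SE, 1.32-fold higher, adjusted p = 0.00155), with ranges that met at the edge, and this call ended with the Gapdh ratio as a covariate (difference 0.26, adjusted p = 0.189).

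**Figure D3:**
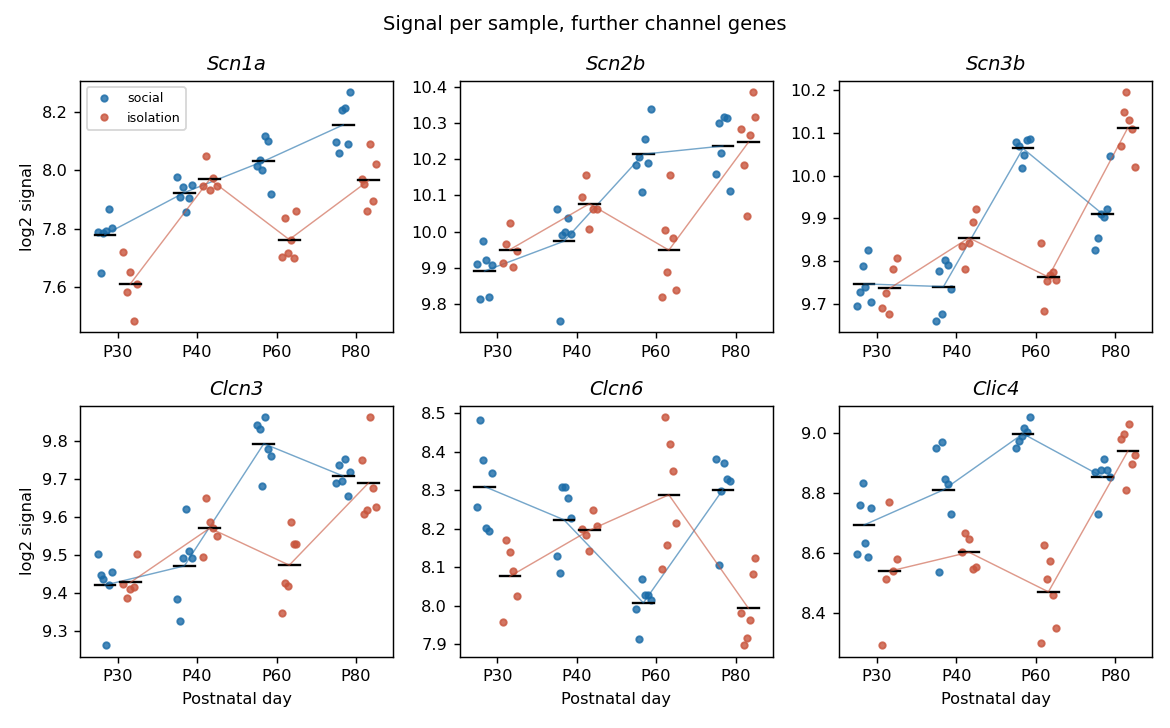
Log2 signal of each of the 46 samples by postnatal day for 6 further channel genes (blue, social rearing; red, isolation), with black bars at group means joined by lines. At P60 the Soc samples of Clic4 (8.95 to 9.05) lie above all Iso samples (8.30 to 8.63), and at P80 the groups overlap.

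Signals also moved with age. In socially reared rats 14 members were called between P30 and P80, 6 higher and 8 lower, against 47.2% of all genes (26.4% higher, 20.7% lower). Among sodium channel genes 4 rose (Scn4b, Scn1a, Scn2b, Scn3b) and Scn2a fell. Among the 9 calcium channel genes none rose and 6 fell (Cacng3, Cacna2d3, Cacna2d1, Cacnb2, Cacna1b, Cacnb3). The largest fall was that of Cacng3, from 8.22 ± 0.091 to 7.34 ± 0.07 (SD, n = 6 each), and the largest rise that of Scn4b, from 7.43 ± 0.098 to 7.89 ± 0.091. In isolation-reared rats 14 members were called between the same ages, 7 higher and 7 lower, against 46.3% of all genes (26.7% higher, 19.6% lower). Scn4b, Clic4, Scn3b, Scn1a, Scn2b, Cacnb1 and Clcn3 were higher at P80 than at P30, and Cacng3, Hcn2, Cacna2d1, Cacng2, Cacna2d3, Clcn4 and Cacnb3 were lower. Scn4b went from 7.75 ± 0.087 (SD, n = 5) to 8.63 ± 0.061 (SD, n = 6) in Iso, a change of 0.87 ± 0.049 (SE, 1.83-fold higher, adjusted p = 1.21e-19).

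The steps between ages differed in size and sign. From P30 to P40, 8 members were called in Soc (2 higher, 6 lower; 24.4% of all genes, 12.9% higher and 11.5% lower) and 7 in Iso (6 higher, 1 lower; 18.1% of all genes, 12.4% higher and 5.64% lower). Scn4b rose most in Soc (0.56 ± 0.046 (SE, 1.47-fold higher, adjusted p = 2.44e-13)) and Cacnb1 rose most in Iso (0.53 ± 0.12 (SE, 1.45-fold higher, adjusted p = 0.000529)). Cacng3 fell most in both, with a difference of -0.34 ± 0.062 (SE, 1.26-fold lower, adjusted p = 4.96e-05) in Soc and -0.42 ± 0.068 (SE, 1.34-fold lower, adjusted p = 4.14e-06) in Iso. With the Gapdh ratio as a covariate the Iso count was 2, against 2352 of all 12149 probe sets in that fit. The calls of Cacng3 (-0.11, adjusted p = 0.579) and Cacnb1 (0.51, adjusted p = 0.12) were among those that ended. From P40 to P60, 12 members were called in Soc (6 higher, 6 lower; 52.5% of all genes, 28.1% higher and 24.4% lower) and 9 in Iso (5 higher, 4 lower; 30.7% of all genes, 12.5% higher and 18.3% lower). In Soc, 4 of 6 sodium channel genes rose and 5 of 9 calcium channel genes fell over this step, with none in the other direction in either family. Cacng3 fell in Soc, with a difference of -0.68 ± 0.062 (SE, 1.6-fold lower, adjusted p = 1.82e-12) and rose in Iso, with a difference of 0.64 ± 0.065 (SE, 1.56-fold higher, adjusted p = 5.04e-11), while Cacna2d3 did not pass in Soc (0.01) and fell in Iso, with a difference of -0.54 ± 0.046 (SE, 1.45-fold lower, adjusted p = 1.72e-13).

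With the Gapdh ratio as a covariate the Iso count from P40 to P60 was 5, including a member not called without it. Over all 12149 probe sets that fit called 3033. The calls of Scn2a, Cacna1c, Scn4b, Clcn4 and Scn3b ended, and the last pair turned sign (-0.024 and 0.0059). The covariate also ended the call of Cacnb1 from P40 to P60 in Soc, and those of Scn1a, Clcn4 and Cacnb1 from P60 to P80 in Soc. Between P30 and P80 it ended those of Clic1 and Scn3b in Soc and of Hcn2 and Cacnb1 in Iso.

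From P60 to P80, 11 members were called in Soc (6 higher, 5 lower; 46.1% of all genes, 22.3% higher and 23.8% lower) and 16 in Iso (7 higher, 9 lower; 52.3% of all genes, 28.5% higher and 23.8% lower). In Iso, 4 of 6 sodium channel genes rose and Scn2a fell over this later step, and 6 of 9 calcium channel genes fell and Cacna2d3 rose. Scn4b fell in Soc, with a difference of -0.43 ± 0.046 (SE, 1.35-fold lower, adjusted p = 1.46e-10) and rose in Iso, with a difference of 0.47 ± 0.046 (SE, 1.39-fold higher, adjusted p = 8.34e-12). Clcn6 rose most in Soc (0.29 ± 0.056 (SE, 1.23-fold higher, adjusted p = 2.97e-05)) and Cacna2d3 fell most (-0.63 ± 0.043 (SE, 1.55-fold lower, adjusted p = 2.15e-16)). Cacng3 fell most in Iso, with a difference of -0.87 ± 0.062 (SE, 1.83-fold lower, adjusted p = 5.75e-16). The steps share groups with one another and with the rearing comparisons, so their values are not independent. In Soc, calls were lost when single arrays were left out for Scn1a at every step, Cacnb3 at P30 to P40, Clic4 at P40 to P60, P60 to P80 and P30 to P80, and Cacnb1 at P60 to P80, with adjusted p of 0.0502 to 0.124. In Iso they were lost for Cacna1b, Clcn3 and Scn3b at P30 to P40, Cacna1c and Scn3b at P40 to P60, and Cacnb1 and Hcn2 at P30 to P80, with adjusted p of 0.0501 to 0.159.

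Some genes gave different answers through different probe sets. Of the 6 genes with more than 1 probe set past the filter, 4 had probe sets called in opposite directions at the same age, in 6 gene and age pairs: Scn3b at P40, P60 and P80, Cacng2 at P80, and Clcn3 and Clic4 at P60. Scn3b was the fullest case. Its dimmer probe set (1370850_at) differed by -0.29 ± 0.033 (SE, 1.23-fold lower, adjusted p = 4.76e-09) at P30 and -0.19 ± 0.033 (SE, 1.14-fold lower, adjusted p = 1.91e-05) at P40. At the later ages it differed by 0.29 ± 0.032 (SE, 1.22-fold higher, adjusted p = 2.00e-10) at P60 and -0.26 ± 0.032 (SE, 1.2-fold lower, adjusted p = 3.82e-09) at P80. Each of these is opposite in sign to the brighter probe set (1383435_at) from P40 on. The gap between the brighter and the dimmer probe set within a sample, a quantity that cancels a change common to both, averaged 0.61, 0.80, 1.24 and 0.91 in Soc and 0.89, 1.10, 0.65 and 1.37 in Iso from P30 to P80. The gap differed by rearing at each age (0.28, 0.30, -0.59 and 0.46, Iso minus Soc), with adjusted p = 0.00866 at P30, P60 and P80 and 0.0139 at P40 by two-sided exact permutation tests. These were adjusted over 32 such tests of 6 genes, 11 of which passed, and 0.00216 is the smallest raw p these group sizes allow.

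Beside the gap, Iso had the higher mean Gapdh ratio at P40 and the lower at P60, the same direction as the gap, while at P30 and P80 the mean ratio was lower in Iso and the gap wider. The hexokinase 3' to 5' ratio averaged 2.98, 3.52, 3.20 and 2.44 in Soc and 3.13, 3.89, 3.42 and 3.32 in Iso. The beta-actin ratio averaged 3.50, 3.98, 4.74 and 4.97 in Soc and 2.44, 4.20, 3.94 and 4.28 in Iso. Its means differed in the same direction as those of Gapdh at each age, while the hexokinase mean was higher in Iso throughout. The part of RNA quality or of transcript variants in the gap was not tested. The ranges of the gap in Soc and Iso did not overlap at any age.

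**Figure D4:**
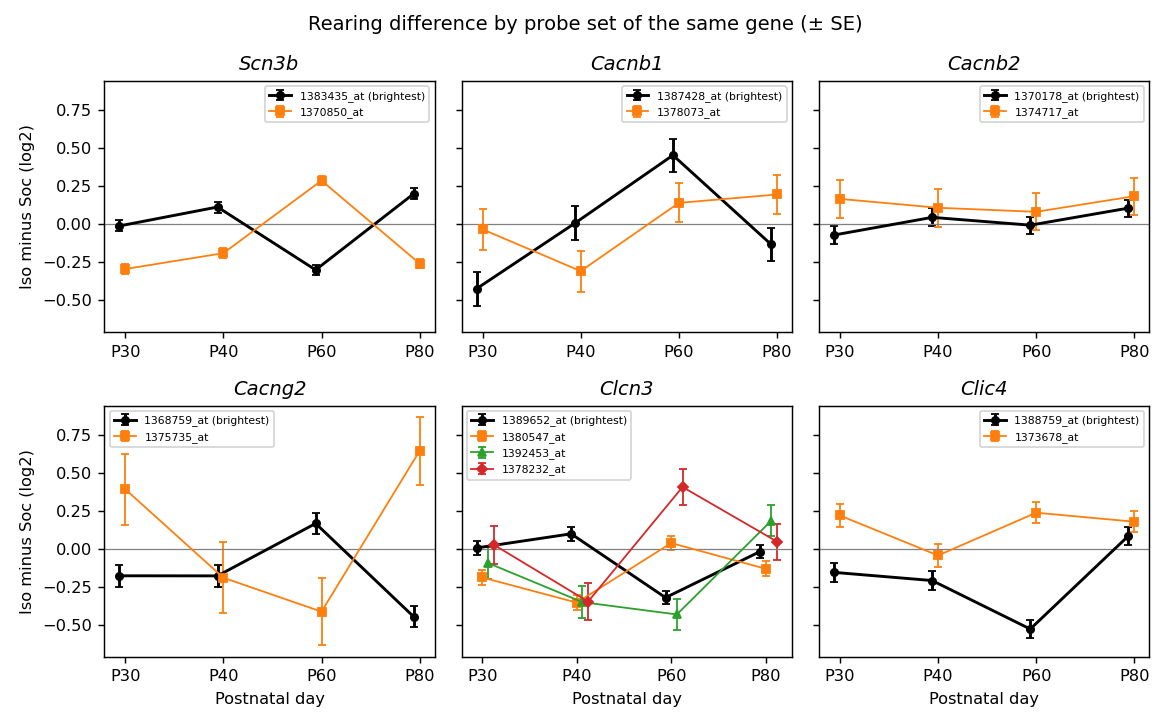
Rearing difference (Iso minus Soc, log2, error bars SE) by postnatal day for each probe set past the filter of the 6 genes with more than 1 such probe set. The probe sets of Scn3b mirror each other from P40 on, with -0.30 and 0.29 at P60.

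**Figure D5:**
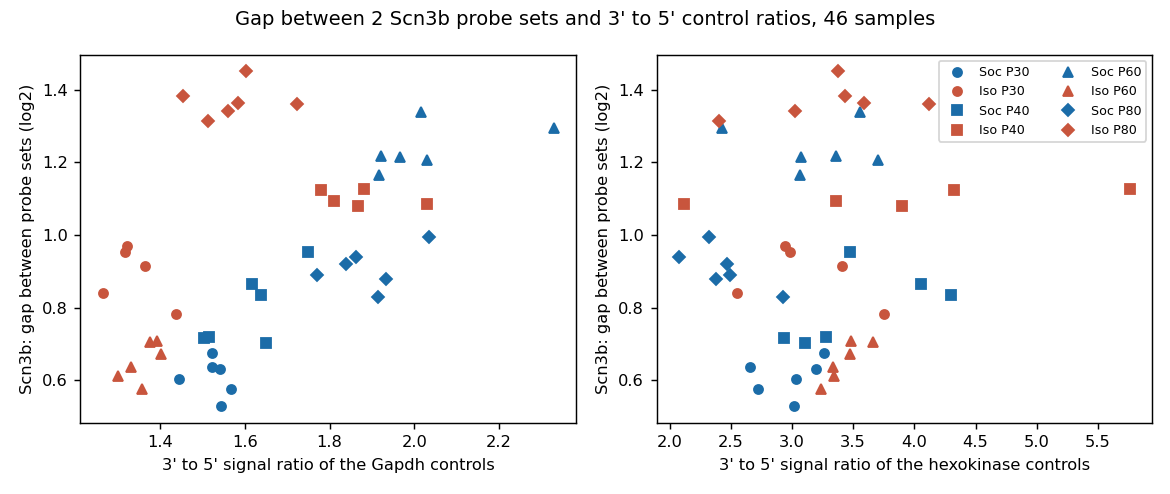
Gap between the 2 probe sets of Scn3b (log2) in each of the 46 samples against the 3' to 5' ratio of the Gapdh controls (left) and the hexokinase controls (right). The Iso P80 samples have the widest mean gap (1.37) at a Gapdh ratio of 1.45 to 1.72, and the Soc P60 samples have a gap of 1.24 at 1.92 to 2.33.

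For Cacng2 the dimmer probe set (1375735_at) was 0.65 ± 0.22 (SE, 1.56-fold higher, adjusted p = 0.0145) at P80, against -0.45 for the brighter, with an SD of 0.41 in Iso P80. For Clic4 the dimmer probe set (1373678_at) was 0.24 ± 0.071 (SE, 1.18-fold higher, adjusted p = 0.00404) at P60, against -0.53. Of the 4 probe sets of Clcn3, a pair was lower at P60 (-0.32 and -0.43), 1378232_at was higher (0.41 ± 0.12 (SE, 1.33-fold higher, adjusted p = 0.00336)) and 1380547_at did not pass (0.04). At P40, 3 dimmer probe sets of Clcn3 were lower (-0.35 each) while the brightest did not pass. The direction stated above for Scn3b, Cacng2 and Clic4 at these ages is therefore that of the brightest probe set alone. For Clcn3 at P60 it is that of the brightest and of 1392453_at.

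The probe sets were also split by the kind of sequence named for them in the platform annotation, a split chosen after their values were seen. Of the members' probe sets, 10 carried an mRNA accession and 19 an expressed sequence tag. At P60, 6 of the 10 were higher and 1 lower in Iso, and 5 of the 19 were higher and 7 lower. Over all probe sets past the filter the shares at P60 were 42.5% higher and 17.1% lower for mRNA, and 22.6% higher and 29.1% lower for expressed sequence tags. At P30, 7 of the 10 mRNA probe sets of the members were lower and none higher, against 21.5% and 5.71% of all mRNA probe sets. Of the 19 others, 3 were lower and 2 higher at P30, against 10.4% and 7.78%. The excess of lower mRNA probe sets among the members was absent at P40. There 2 of the 10 were lower and none higher, against 29.5% and 5.999%. Of the 19 others, 5 were lower and 2 higher at P40, against 12.8% and 13.6%. At P80, 6 of the 10 were lower and none higher, against 32.9% and 19.7%. Of the 19 others, 6 were higher and 4 lower at P80, against 23.3% and 23.9% of all expressed sequence tag probe sets. Directions differed by the kind of probe set among all probe sets too, and what lies behind this was not tested.

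Partners of the channels, and other proteins that handle sodium, calcium and chloride, were counted from a list of 68 genes, of which 52 were on the table and 43 past the filter. They were 3 higher and 12 lower at P30, 4 and 13 at P40, 13 and 17 at P60, and 8 and 12 at P80, against the shares of all genes given above. Of 12 calcium channel partners, 1 was higher and 7 lower at P40, and 6 were higher and 3 lower at P60. Cabp1, a calcium-binding regulator of calcium channels, differed by -0.18 (adjusted p = 0.0430) at P40, 0.92 (adjusted p = 1.00e-15) at P60 and -0.21 (adjusted p = 0.00714) at P80. Rims1, an active-zone scaffold that binds calcium channels, differed by -0.66 (adjusted p = 1.45e-09) at P40 and 0.54 (adjusted p = 1.02e-08) at P60. Cnih2, an AMPA receptor partner like the TARPs, differed by -0.16 (adjusted p = 0.0123) at P40, 0.63 (adjusted p = 3.86e-15) at P60 and -0.35 (adjusted p = 4.69e-08) at P80. Dlg4, the scaffold PSD-95 to which TARPs bind, differed by 0.78 (adjusted p = 2.97e-12) at P30, the opposite sign to Cacng3 at that age (-0.37). It differed by -0.22 (adjusted p = 0.0120) at P40, 0.42 (adjusted p = 4.27e-07) at P60 and -0.23 (adjusted p = 0.00265) at P80. At these later ages its sign was that of Cacng3, which did not pass at P80.

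The axon initial segment list had 9 genes past the filter, of which 1 was higher and 5 lower at P60, and 4 were higher and 2 lower at P80. Fgf13, a cytoplasmic partner of sodium channels, differed by -0.23 (adjusted p = 1.89e-07) at P60 and 0.39 (adjusted p = 2.02e-13) at P80. Ank3, which encodes the ankyrin-G that anchors sodium channels, differed by -0.37 (adjusted p = 0.0147) at P40 and 0.37 (adjusted p = 0.00446) at P60. The sodium pump list had 3 genes past the filter (Atp1b1, Atp1b2, Atp1b3), and 3 of 3 were lower at P30 and 3 of 3 higher at P60. Of 12 genes of calcium release and calcium pumps, 2 were higher and 6 lower at P60, among them Slc8a1, the sodium and calcium exchanger, with -0.50 (adjusted p = 1.76e-08). Of 6 chloride partners and transporters, 1 was higher and 2 lower at P60, and Slc12a5, the neuronal chloride exporter KCC2, differed by -0.18 (adjusted p = 0.0147) at P30 and did not pass at the other ages. The single HCN partner past the filter, Nedd4, differed by 0.45 (adjusted p = 6.45e-13) at P80.

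The other 18 members had mean signals under the filter of 5.72 and were not tested. They were Scn7a, Scn8a and Scn9a among sodium channels and Cacna1a, Cacna1d, Cacna1h, Cacna1i, Cacnb4, Cacng4, Cacng5, Cacng7 and Cacng8 among calcium channels, with Hcn3, Clcn1, Clcn2, Clcn5, Clcn7 and Clic2. Their mean signals over the samples ran from 3.20 for Scn9a to 5.69 for Hcn3. Hcn3 was the nearest below the filter and Scn3a, at 6.07, the nearest above. Scn8a and Cacna1a encode the NaV1.6 and P/Q-type pores, which are known to be widely expressed in brain, and their probe sets averaged 3.85 and 4.91. A dim probe set says nothing certain about the level of its transcript.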

How the data were processed

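Biotin-labelled RNA was hybridised to 47 one-colour Affymetrix arrays. The deposited values are log2 signals that the authors computed with MAS5, per the submitters' processing notes, and they were used as deposited. The MAS5 version is not given in the sources used here. Groups came from the labels. Array distances were taken within groups, and arrays 3 and 4 of Iso P30, 0.116 log2 apart (0.488 of their group's median, the next pair at 0.863), were averaged, giving 46 samples. Probe sets with a mean at or over the 40th percentile of 20249 that are not controls (5.72) were kept, which left 12149 for 7896 genes. The fit was limma 3.58.1 in R 4.3.3, with 8 group means, a variance trend and 38 residual degrees of freedom. Tests were two-sided, and p-values were adjusted by Benjamini-Hochberg over the kept probe sets of each comparison. Symbols came from the platform annotation, and 39 of 39 members matched the RefSeq gene table of GRCr8. The fit was tested on simulated data. Figures used matplotlib 3.10.9 in Python 3.11.15.

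The members, the partner and marker lists and the tests were chosen with earlier results of these data known. All members are named. Full values go to the members past the filter, and the others are given by level. The replicate numbers of the titles do not pair the samples: of 154 same-numbered pairs across groups, 4 had deviations correlated above 0.1 (median r = 0.0019), so the fit had no block. The alternatives were quantile normalization, no filter, 47 arrays, the Gapdh ratio as a covariate, a replicate block, the mean of a gene's probe sets, 2 groups only, and each array left out. The number of arrays limits the precision.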

Additional observations from a re-analysis of the deposited data

Results flagged for a closer look

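In 11 of 168 gene and group combinations, the sample at an edge stood apart from the rest of its group by Dixon's criterion, and chance gives about 1 in 20. The high samples were Cacna2d1 in array 1 of Soc P80 (7.98), Scn2a in array 4 of Soc P30 (9.43) and Clcn4 in the averaged pair of Iso P30 (8.44). The low samples were Cacng3 in array 5 of Iso P40 (7.17), Hcn2 in array 3 of Soc P30 (6.81), Scn4b in array 1 of Iso P80 (8.51), Clcn3 in array 4 of Soc P30 (9.26) and 2 genes in array 2 of Soc P40, Cacnb1 (7.30) and Scn2b (9.75). Array 2 of Soc P80 was low for Clic4 (8.73) and Clcn6 (8.11).

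The rearing difference depended on age by the moderated F test of the interaction in 17 members. The adjusted p was 2.27e-17 for Cacng3, 3.68e-16 for Scn4b, 8.33e-15 for Cacna2d3, 4.21e-13 for Cacnb3, 9.09e-12 for Cacna2d1, 1.22e-11 for Scn3b and 1.30e-11 for Scn2a. It was 4.44e-08 for Clcn6, 7.74e-08 for Clcn4, 4.77e-07 for Clic4, 1.03e-06 for Clcn3, 6.80e-06 for Cacng2, 3.65e-05 for Cacnb1, 5.68e-05 for Cacna1b, 8.81e-05 for Scn2b, 0.000310 for Scn1a and 0.0187 for Clic1. The sizes of the differences at each age are those given for each gene in the report.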

How the results depend on the processing

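With the Gapdh ratio as a covariate, the count of members called was 7 at P60, 8 for P60 minus P40, 2 for Iso P30 to P40 and 5 for Iso P40 to P60. Over all 12149 probe sets the counts in that fit were, in the same order, 3753, 4014, 2352 and 3033. Clcn4 turned to -0.0907 at P60, -0.16 for P60 minus P40 and -0.0242 for Iso P40 to P60, and Scn3b to 0.0059 for the last. With no filter 19 of 39 members were called for Soc P40 to P60, more genes being tested. With the mean of a gene's probe sets, Scn3b turned at P40 (-0.0380), P80 (-0.0285), P60 minus P40 (0.0320), Soc P60 to P80 (0.0122), Iso P40 to P60 (0.13) and Iso P60 to P80 (-0.0102). Cacng2 turned at P60 (-0.12), P80 (0.0997), Soc P60 to P80 (-0.13) and Iso P60 to P80 (0.0907). Clcn3 turned for P60 minus P40 (0.16), Soc P40 to P60 (-0.0326), Soc P30 to P80 (-0.0125) and Iso P30 to P40 (-0.10), and Clic4 for Soc P40 to P60 (-0.0257) and Soc P30 to P80 (-0.0587). These genes have probe sets that differ in direction, and averaging combines them. For the covariate the cause was not tested.

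With each array left out in turn, the counts were 9 to 12 at P30, 5 to 7 at P40, 14 to 16 at P60, 12 to 14 at P80, 17 to 18 for the interaction and 13 to 15 for P60 minus P40. In Soc they were 7 to 9, 10 to 12 and 8 to 11 for the steps in order and 13 to 14 from P30 to P80, and in Iso 5 to 8, 7 to 10, 16 to 18 and 12 to 16. Single arrays that ended a call were array 5 of Iso P40 for Scn3b at P40, array 1 of Soc P30 for Cacnb3 and array 2 of Soc P30 for Scn1a from P30 to P40, and array 2 of Soc P40 for Clic4 from P40 to P60 in Soc (adjusted p of 0.0530, 0.0571, 0.0534 and 0.0525). Clcn4 for P60 minus P40 was lost without any of 4 arrays (0.0537 to 0.0762). The replicate block changed 1 call, Cacna1b for Iso P30 to P40 (0.15, adjusted p = 0.0808). Quantile normalization ended 5 calls of named genes and reversed none, counting 47 arrays apart ended 1, and fitting only the groups compared ended 7, among them Scn1a at P30 and Scn3b at P40.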
